A study of Mus musculus with 8 samples.

Results

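Iron, zinc and the metals that travel with them cross cell membranes through a small set of carriers, and 10 mouse genes for such carriers and for the zinc-binding metallothioneins were examined in embryonic stem cells (ESCs) depleted of Rad21, a core subunit of the cohesin ring. They were Slc11a1, Slc11a2, Slc39a4, Slc39a8, Slc39a14, Slc30a1, Slc40a1, Tfrc, Mt1 and Mt2. Members were the probe sets whose platform annotation gave 1 of these 10 symbols alone, which were 25 of the 45101 probe sets on the array, 22 of them tested and 3 of them control probe sets of Tfrc. The genes were chosen because Slc11a1 and Slc39a8 stood among the 12 largest falls of this same comparison, at ranks 2 and 6 of the genes that fell, so the values of these 2 genes are a description and carry no test. The 12th fall was Mymx (-2.28 on the log2 scale) and the 13th, just outside, was Prdm14 (-2.25). The other 8 genes were added as relatives in function, with the results of the comparison already known.

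RNA came from R1/E cells, a mouse ESC line, harvested 48 h after transfection of 80000 cells per well with 800 ng esiRNA, a mixture of short interfering RNAs cut by an enzyme from long double-stranded RNA. One group of 4 arrays received esiRNA against Rad21, and the control group of 4 arrays received esiRNA against luciferase (Luc), which mouse cells lack. Both groups are the same line, for which no transgene is named in this experiment, and the labels call the arrays of each group biological replicates 1 to 4. Where nothing else says that the replicates were separate cultures, the p-values measure the spread between these samples.

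Divalent metals enter cells through SLC11 and SLC39 (ZIP) carriers and through endocytosis of transferrin by its receptor Tfrc, and they leave through SLC30 (ZnT) carriers for zinc and through Slc40a1, or ferroportin, for iron. Free zinc activates the factor Mtf1, which binds metal response elements before the metallothionein genes and Slc30a1, while iron regulatory proteins bind stem-loops in the mRNAs of Tfrc, Slc11a2, Slc40a1 and the ferritins. ESCs divide rapidly and are known for abundant transferrin receptor.

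Rad21 itself was lower at each of 3 probe sets, with 33.4% of the control signal left at the brightest (adjusted p = 0.00222). Deposited values are on the log2 scale, with array medians from 3.08 to 3.16, and values under about 4 lie in a low plateau where sizes of change are compressed. Arrays of the same group correlated at 0.998 to 0.999 over probe sets, which are no independent replicates. The second principal component of the 8 arrays, with 11.6% of the variance, set the arrays of replicates 1 and 2 apart from those of replicates 3 and 4, so values within these sets are given where they differ. All 8 ESC markers had a control mean of at least 4, and 6 of 8 were called lower, Esrrb (-1.43) and Nanog (-0.83) the most. Over all genes 12.6% were called lower. Of genes with a mean of 4 or more 38.6% were called in either direction, and 42.4% of those with a mean of 8 or more. The summed linear signal of the 8 markers was 187288 to 191629 in the control and 150884 to 153458 in the knock-down. Whether the fall of these markers bears on the metal genes was not tested. Of 10 fibroblast markers 8 were under 4 in both groups (summed signal 106 to 143 and 122 to 142), as were all 6 measured erythroid markers (37.6 to 41.2 and 38.9 to 39.2). Of the fibroblast markers 1 was called lower and 9 did not pass, where 12.6% of all genes were lower. Among those 9, Col3a1 rose in replicates 1 and 2 alone (1.35, limma adjusted p = 0.0127) but did not pass over all arrays (0.80, adjusted p = 0.189). In these bulk samples fewer cells that express a gene and less RNA per cell cannot be told apart.

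Among the 10 genes, ferroportin rose about 4-fold, and the metallothionein genes Mt1 and Mt2 and the zinc exporter gene Slc30a1 fell modestly at their brightest probe sets. For Tfrc, Slc30a1 and Mt1 some probe sets fell and others did not pass. A linear model with moderated variances (limma), with Benjamini-Hochberg adjustment across the 45037 tested probe sets, called 10 of the 22 member probe sets at an adjusted p under 0.05, 3 higher and 7 lower. Over all probe sets 14.9% were called, 6.47% higher and 8.4% lower. Without the probe sets of Slc11a1 and Slc39a8, 8 of 19 were called, 3 higher and 5 lower. Taken as the brightest probe set of each gene, 5 of the 8 genes other than Slc11a1 and Slc39a8 were called, where 22.6% of 18193 genes were (10.1% higher and 12.6% lower). All 10 genes had a control mean of at least 4, and 38.6% of all genes with a mean of 4 or more were called. Since the members were chosen from this comparison, nothing is read from these shares. The groups did not overlap at 12 of the 22 probe sets (Slc11a1 and Slc39a8 included), against 19.4% of all probe sets, and at 8 of the 10 genes, against 27.8% of all genes. Both group means lay under 4 at 4 of the 22.

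**Figure D1:**
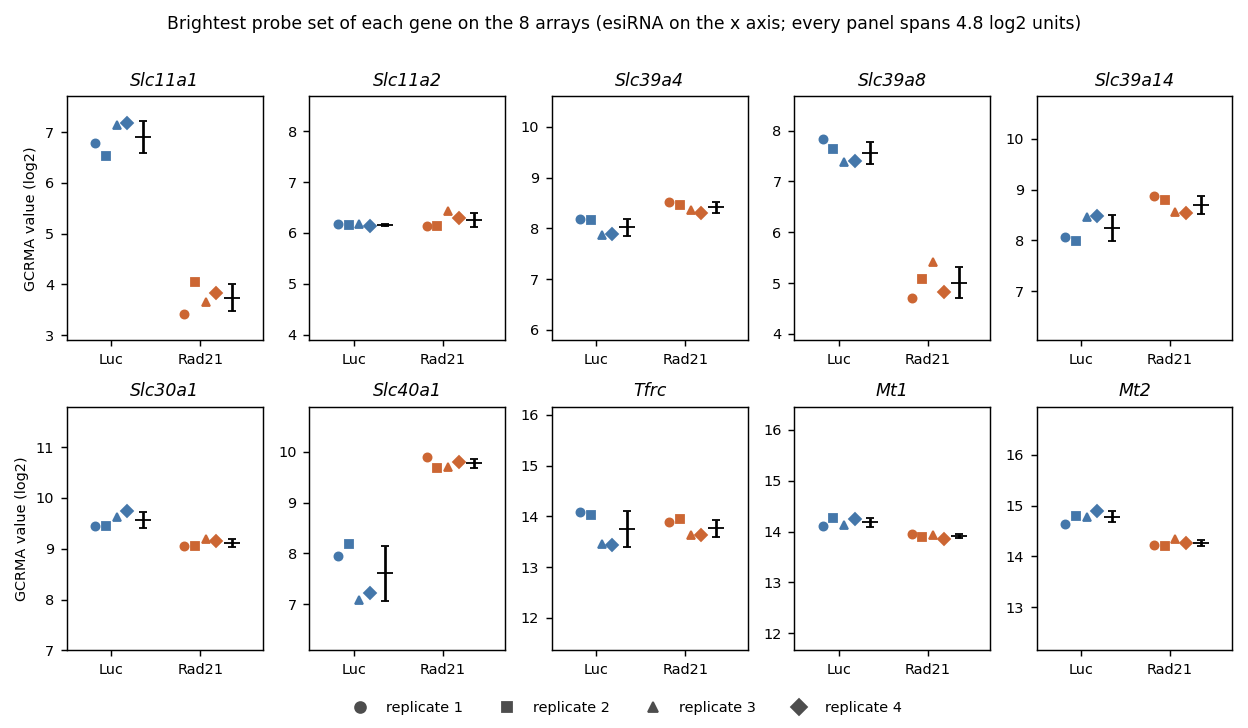
GCRMA values (log2, y axis) of the brightest probe set of each of the 10 genes on the 4 Luc and 4 Rad21 esiRNA arrays (x axis), where bars beside the points give mean and SD (n = 4) and symbols tell the replicates apart; every panel spans the same range. Slc11a1 and Slc39a8 lie far lower and Slc40a1 far higher in the knock-down, while Tfrc overlaps.

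Slc11a1, also called Nramp1, encodes a proton-coupled carrier of divalent metals best known from the phagosomes of macrophages. Its 1 probe set, 1420361_at, read 6.78, 6.53, 7.15 and 7.18 on the log2 scale in Luc replicates 1 to 4, and 3.43, 4.05, 3.65 and 3.83 in the corresponding knock-down arrays. Every knock-down array lay more than 2 log2 units below every control array, and the knock-down mean of 3.74 is within the plateau. The difference was -3.17 (-2.92 for replicates 1 and 2 alone, -3.42 for replicates 3 and 4 alone), and its size is not settled because the lower end is dim. Of 10 macrophage markers 9 had means under 4 in both groups, among them Adgre1, Csf1r, Ptprc, Itgam and Lyz2. The exception was Cd68, a lysosomal protein gene, with 8.45 ± 0.14 (SD, n = 4) in the control and 8.13 ± 0.19 in the knock-down (log2 difference -0.32, adjusted p = 0.0982). The summed linear signal of the list ranged from 379 to 444 in the control arrays and from 310 to 387 in the knock-down arrays. Most of this sum is the signal of Cd68, whose own change did not pass, so it says little about the other 9 markers.

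Slc39a8, or ZIP8, imports zinc, manganese and iron. The brighter of its 2 probe sets, 1416832_at, read 7.84, 7.63, 7.38 and 7.41 in the control and 4.71, 5.08, 5.42 and 4.83 in the knock-down, again with a wide gap between the groups. The mean went from 7.56 ± 0.22 to 5.01 ± 0.31 (log2, SD, n = 4), a difference of -2.55, or 5.88-fold lower. Replicates 1 and 2 alone gave -2.84, and replicates 3 and 4 alone gave -2.27. The second probe set stayed at 1.90 in both groups, in the plateau, so it carries no information on the transcript. The genes whose centred profile over the 8 arrays was most like that of Slc39a8 were Prdm14, with a root mean square difference of 0.20 on the log2 scale, Ceacam1 (0.24) and 2410137M14Rik (0.29). For Slc11a1 they were Gabbr1 (0.46), Ceacam1 (0.47) and Slc39a8 itself (0.48). All of these are genes with large falls, which the measure favours by its construction.

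**Figure D2:**
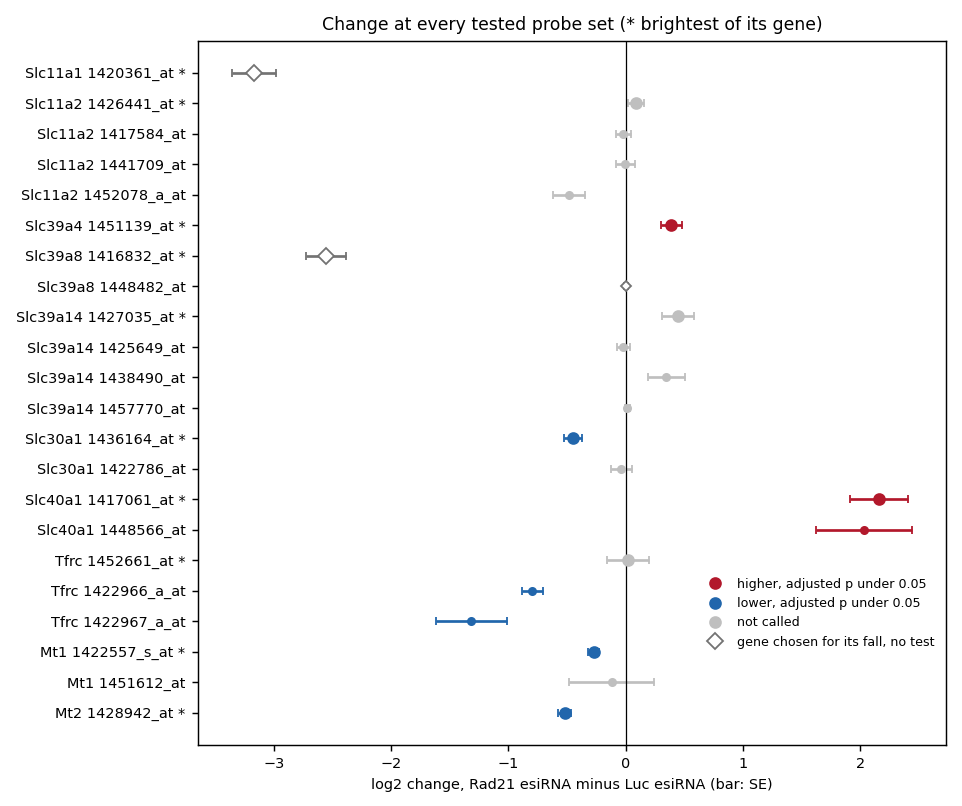
Log2 change (x axis, Rad21 esiRNA minus Luc esiRNA, 4 arrays per group, bars show the SE) at each of the 22 tested probe sets, with colour for the call and open diamonds for the genes chosen for their fall. Both Slc40a1 probe sets lie near 2 (2.16 and 2.03), and the 3 Tfrc probe sets spread from 0.02 to -1.32.

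Slc40a1 encodes ferroportin, the only known exporter of iron from animal cells, and it had the largest rise of the 10 genes at their brightest probe sets. Its brighter probe set, 1417061_at, read 7.95, 8.19, 7.08 and 7.22 in the control and 9.89, 9.69, 9.70 and 9.80 in the knock-down. The knock-down arrays lay close together, whereas the control arrays were higher in replicates 1 and 2 than in replicates 3 and 4. The mean went from 7.61 ± 0.54 to 9.77 ± 0.10 (log2, SD, n = 4), a change of 2.16 ± 0.25 (SE) or 4.47-fold, with a 95% interval from 1.58 to 2.74 on the log2 scale (limma adjusted p = 0.00112). The second, 1448566_at, rose too, from 6.76, 7.03, 5.21 and 5.47 to 8.17, 8.11, 8.09 and 8.22, which is a change of 2.03 ± 0.41 (SE, adjusted p = 0.0145). Both probe sets had fully separated groups and both kept their call without any single array, with a highest adjusted p of 0.00486 and 0.0407. Replicates 1 and 2 alone gave a change of 1.73 at the brighter probe set, and replicates 3 and 4 alone gave 2.60. At the second probe set it was 1.25 and 2.82, and the difference between the sets passed the test (interaction adjusted p = 0.0367).

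Tfrc encodes the transferrin receptor, the main route of iron into dividing cells. At its brightest probe set, 1452661_at, the knock-down and control overlapped, with 14.09, 14.04, 13.45 and 13.43 in the control and 13.89, 13.94, 13.63 and 13.63 in the knock-down. The difference was 0.02 ± 0.18 (SE, n = 4), with a 95% interval from -0.40 to 0.44 (adjusted p = 0.986). The replicate sets had opposite signs, with -0.15 in replicates 1 and 2 (adjusted p = 0.163) and 0.19 in replicates 3 and 4, which passed on its own (adjusted p = 0.0276), while the difference between the sets did not (interaction adjusted p = 0.0565). Replicates 3 and 4 were lower than replicates 1 and 2 by 0.46 at this probe set (log2 difference -0.46, adjusted p = 0.0338), which 1.92% of all probe sets also passed in one direction or the other. The probe set 1422966_a_at had values of 7.23, 7.59, 7.37 and 7.48 in the control and 6.48, 6.58, 6.66 and 6.77 in the knock-down, so its groups did not overlap. It fell by 0.80 on the log2 scale (-0.80 ± 0.09, SE, adjusted p = 0.00108). The third, 1422967_a_at, went from 4.38 ± 0.67 to 3.06 ± 0.02 (SD, n = 4), a change of -1.32 ± 0.30 (SE, adjusted p = 0.0242) that ends in the plateau. Its call was lost without Luc replicate 3 or without any 1 of the knock-down arrays (highest adjusted p = 0.0649), in both replicate sets alone (adjusted p = 0.162 and 0.105), and with an unmoderated analysis of variance (adjusted p = 0.0614).

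The platform also carries 3 control probe sets along the Tfrc transcript, which were left out of the test. The 3′ one had a mean of 6.87 ± 0.13 in the control and 6.06 ± 0.10 in the knock-down (SD, n = 4), a difference of -0.80. The 5′ one differed by -0.62 (5.03 ± 0.51 and 4.41 ± 0.32), and the middle one by -0.17, with both means under 4. Thus 4 of the 6 Tfrc probe sets read at least 0.6 lower and the brightest did not. The 3′ minus 5′ gap of this transcript, a measure of RNA integrity, was 1.84 ± 0.54 in the control and 1.65 ± 0.37 in the knock-down (SD, n = 4, exact permutation p = 0.571), and that of Gapdh and Actb differed by -0.01 and -0.001 between the groups. Why the probe sets of Tfrc differ was not tested.

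Slc11a2, or DMT1, carries iron out of endosomes after transferrin uptake. Its brightest probe set over all 8 arrays, 1426441_at, read 6.18, 6.17, 6.18 and 6.14 in the control and 6.14, 6.14, 6.44 and 6.30 in the knock-down, a difference of 0.09 ± 0.07 (SE, n = 4) with a 95% interval from -0.07 to 0.25 (adjusted p = 0.568). The groups overlapped, and in replicates 1 and 2 the sign was negative (-0.03). Of the other 3 probe sets, 1452078_a_at had separate groups, with a mean of 6.18 ± 0.18 in the control and 5.70 ± 0.23 in the knock-down (SD, n = 4). Its difference of -0.48 ± 0.13 (SE) just missed the threshold (adjusted p = 0.0507), with -0.76 in replicates 1 and 2 (adjusted p = 0.0495) and -0.21 in replicates 3 and 4 (adjusted p = 0.148). It passed without Luc replicate 3 (adjusted p = 0.0455) and with limma's trend and robust options (adjusted p = 0.0436). In the control arrays alone this probe set was the brighter of both (mean 6.18 against 6.16), so the choice of the value for Slc11a2 turns on the knock-down arrays, and the sign of the gene's value with it. The remaining 2 differed by -0.02 and -0.002.

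The zinc importer gene Slc39a4 rose, and Slc39a14 did not pass the test. Slc39a4, the ZIP4 carrier of intestinal zinc uptake, read 8.18, 8.16, 7.87 and 7.88 in the control and 8.53, 8.45, 8.36 and 8.30 in the knock-down. It rose by 0.39 ± 0.09 (SE, n = 4) on the log2 scale (1.31-fold, adjusted p = 0.0241), with 0.32 and 0.46 in the replicate sets. The call was lost when Luc replicate 3, Luc replicate 4, or either of knock-down replicates 1 and 2 was left out (adjusted p up to 0.0680) and with an unmoderated analysis of variance (adjusted p = 0.0588). Slc39a14, or ZIP14, which like ZIP8 also carries iron and manganese, read 8.07, 7.99, 8.46 and 8.48 in the control and 8.88, 8.80, 8.56 and 8.54 in the knock-down. The groups did not overlap, but the difference of 0.45 ± 0.14 (SE, n = 4) did not pass the test (adjusted p = 0.0790). It was 0.81 for replicates 1 and 2 but 0.08 for replicates 3 and 4, and this difference between the sets passed (interaction adjusted p = 0.0276). The other 3 Slc39a14 probe sets were dim and differed by -0.02, 0.35 and 0.01 (adjusted p from 0.247 to 0.941).

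Slc30a1, or ZnT1, exports zinc across the plasma membrane. Its brighter probe set, 1436164_at, read 9.44, 9.44, 9.63 and 9.75 in the control and 9.05, 9.05, 9.19 and 9.15 in the knock-down, so every knock-down array was lower. It fell by 0.45 on the log2 scale (-0.45 ± 0.08, SE, n = 4, 73.1% of the control, adjusted p = 0.00662), with -0.39 and -0.52 in the replicate sets. The second probe set differed by -0.04 ± 0.09 (SE, adjusted p = 0.921), with a 95% interval from -0.25 to 0.18 that leaves out the size seen at the brighter one.

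The metallothioneins are small cysteine-rich proteins that bind zinc and copper, and Mt1 and Mt2 lie side by side on chromosome 8. Mt2 (1428942_at) read 14.64, 14.80, 14.78 and 14.90 in the control and 14.23, 14.20, 14.35 and 14.26 in the knock-down, without overlap. It fell by 0.52 on the log2 scale (-0.52 ± 0.06, SE, n = 4), to 69.7% of the control (adjusted p = 0.00103), with -0.51 and -0.54 in the replicate sets. Mt1, at probe set 1422557_s_at, whose suffix marks probes that can hybridise to several transcripts, read 14.10, 14.26, 14.12 and 14.26 in the control and 13.95, 13.89, 13.94 and 13.86 in the knock-down. It fell by 0.27 (-0.27 ± 0.05, SE, n = 4), to 82.7% of the control (adjusted p = 0.00606). Its call was lost with only 2 arrays per group, in replicates 1 and 2 (-0.26) and in replicates 3 and 4 (-0.29, adjusted p at least 0.107). The dimmer Mt1 probe set ranged from 5.93 to 7.52 in the control and from 6.37 to 6.71 after Rad21 depletion, and its difference missed the threshold (-0.12 ± 0.36, SE, adjusted p = 0.940), with opposite signs in replicates 1 and 2 (0.46) and replicates 3 and 4 (-0.70). All 4 arrays of the knock-down were thus below all 4 control arrays for Mt1, Mt2 and Slc30a1 at their brightest probe sets. Groups did not overlap, in either direction, at 27.8% of all genes. At the dimmer probe sets of Mt1 and Slc30a1 the groups overlapped.

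Because these 3 genes are textbook targets of Mtf1, the 250 bases before their RefSeq start sites (GRCm38.p6) are shown, 5′ to 3′ along the gene, in lower case with each match to the metal response element core in capitals. The letters searched were TGCACNC and TGCGCNC on both strands, and overlapping matches would merge.
Mt1 (chr8:94178839-94179088, plus strand): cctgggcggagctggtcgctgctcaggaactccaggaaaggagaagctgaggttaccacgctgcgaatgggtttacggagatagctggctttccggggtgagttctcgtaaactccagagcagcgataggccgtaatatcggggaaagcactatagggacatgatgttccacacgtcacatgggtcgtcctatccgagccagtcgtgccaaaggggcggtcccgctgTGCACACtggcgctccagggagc
Mt2 (chr8:94172368-94172617, plus strand): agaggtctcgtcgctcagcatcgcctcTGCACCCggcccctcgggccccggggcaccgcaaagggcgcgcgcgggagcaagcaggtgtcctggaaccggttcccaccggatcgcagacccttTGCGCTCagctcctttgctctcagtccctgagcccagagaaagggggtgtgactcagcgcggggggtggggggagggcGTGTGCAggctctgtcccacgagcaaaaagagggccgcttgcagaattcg
Slc30a1 (chr1:191906531-191906780, plus strand): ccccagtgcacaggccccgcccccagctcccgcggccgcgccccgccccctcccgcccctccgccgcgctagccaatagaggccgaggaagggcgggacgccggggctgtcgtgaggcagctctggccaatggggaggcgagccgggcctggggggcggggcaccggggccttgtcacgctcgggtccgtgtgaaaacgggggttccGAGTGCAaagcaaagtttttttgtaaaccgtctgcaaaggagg
Mt2 held 3 matches, Mt1 held 1 and Slc30a1 held 1. Of all 32851 windows of this length 21.4% held at least 1 match and 1.26% held at least 3. Most of the Mt1 window lies inside the annotated span of the gene, so other starts of Mt1 are not covered by it. Bases beyond the end of this window were not searched, so its 1 match is no count for the whole Mt1 promoter. RefSeq windows were found for 6 of the 10 genes. Slc11a1 had no match, 1 of 2 windows of Slc39a8 and 1 of 2 of Tfrc had at least 1, and no window was found for Slc11a2, Slc39a4, Slc39a14 and Slc40a1. A match describes these letters and is not a measured binding site. Mtf1 itself fell by 0.30 on the log2 scale, from 6.89 ± 0.03 to 6.59 ± 0.13 (SD, n = 4, log2 change -0.30, adjusted p = 0.0141). It passed in replicates 1 and 2 alone (limma adjusted p = 0.0289) but not in replicates 3 and 4 alone (adjusted p = 0.196). Whether the fall of Mtf1 bears on Mt1, Mt2 or Slc30a1 was not tested. The brain and epithelial metallothionein genes Mt3 and Mt4 had means under 4 in both groups.

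**Figure D3:**
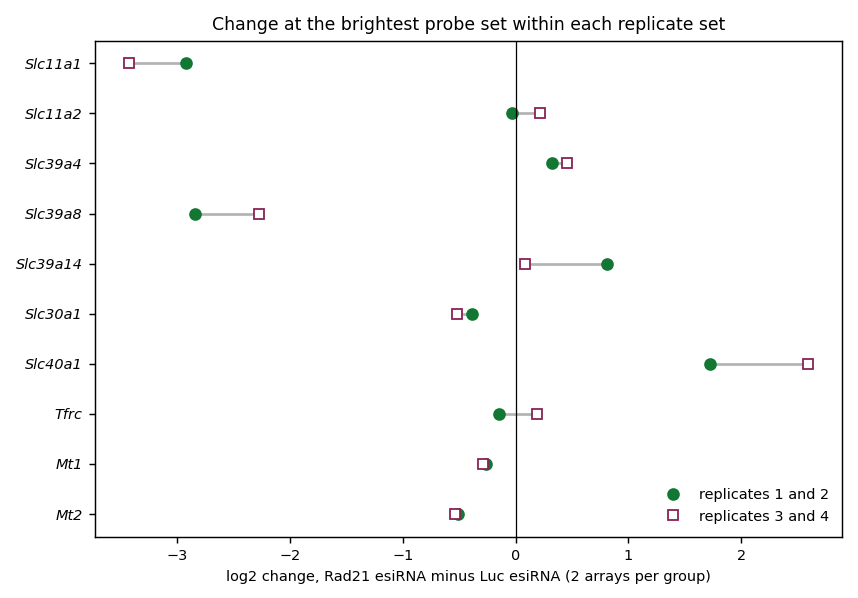
Log2 change (x axis, Rad21 esiRNA minus Luc esiRNA) at the brightest probe set of each gene within replicates 1 and 2 (filled circles) and within replicates 3 and 4 (open squares), 2 arrays per group in each. The 2 symbols lie close together for Mt1, Mt2 and Slc30a1, Slc39a14 went from 0.81 to 0.08, and Slc11a2 and Tfrc changed sign.

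Across the 22 probe sets the interaction of the knock-down with the replicate set was called for 2, the dimmer Slc40a1 probe set and the brightest Slc39a14 probe set, where 0.777% of all probe sets were called. Leaving out any 1 array left 0 or 1 of the 22, while the calls over all probe sets went from 350 to between 0 and 315. The sets were found in these same arrays and the labels name no batch, so the tests that use them are a description.

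Other genes of metal ion handling were measured to set the 10 beside their pathways. Of 99 listed genes that are no members, 90 had a probe set with a single symbol, and 11 of these rose and 16 fell, that is 30.0% against 22.6% of all genes. Their median change was -0.03, and that of all genes 0.003. All 27 called genes had a mean of at least 4, and among genes with such a mean 42.2% of the listed ones (27 of 64) and 38.6% of all were called (42.4% among genes with a mean of at least 8). Among 11 further SLC39 genes, Slc39a7, which releases zinc from the endoplasmic reticulum, rose by 0.21 ± 0.03 (SE, n = 4, adjusted p = 0.00485) and the other 10 did not pass. Of 9 further SLC30 genes 3 rose and 1 fell. The vesicular zinc carrier gene Slc30a4 rose by 0.72 ± 0.08 (SE, adjusted p = 3.97e-04), from 6.91 ± 0.11 to 7.63 ± 0.09 (SD, n = 4). Slc30a7 (0.40) and Slc30a9 (0.15) rose and Slc30a2 fell (-0.57), but each of these calls was lost without some single arrays (highest adjusted p = 0.0573, 0.122 and 0.0802).

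Among 23 further genes of iron uptake, export and storage 2 rose, 1 fell and 20 did not pass. The ferrireductase gene Steap2 rose by 0.86 ± 0.21 (SE, n = 4, adjusted p = 0.0309) and the heme exporter gene Flvcr1 by 0.69 ± 0.12 (adjusted p = 0.00839). Slc25a28, a mitochondrial iron carrier gene, fell (-0.40 ± 0.06, SE, adjusted p = 0.00299). The call of Steap2 was lost without 5 of the arrays taken singly (highest adjusted p = 0.0848). The ferritin heavy chain gene Fth1 had 15.30 ± 0.12 in the control and 15.21 ± 0.04 after Rad21 depletion (SD, n = 4), and this difference missed the threshold (-0.10, adjusted p = 0.459), and the ferritin light chain gene was not analysed here. Of the iron regulatory protein genes, Aco1 rose (0.32 ± 0.06, SE, adjusted p = 0.0122) and Ireb2 had a difference of -0.16 ± 0.04 that missed the threshold (adjusted p = 0.0554). Other transcripts with an iron responsive element, Epas1 (-0.08, adjusted p = 0.737) and Alas2 (-0.004, under 4 in both groups), did not pass. Of the 6 measured transcripts of that kind 1, Slc40a1, was called at its brightest probe set. Over all genes 22.6% were called, and 38.6% of those with a mean of 4 or more. This count rests on the brightest probe sets, and Tfrc was called lower at its dimmer ones.

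In heme synthesis and iron-sulfur cluster assembly 10 of 23 genes fell and 2 rose, where 12.6% of all genes were lower and 10.1% higher. Of the 23, 22 had a control mean of at least 4, and 38.6% of all genes with a mean of 4 or more were called in either direction. The falls were led by the co-chaperone gene Hscb (-0.52 ± 0.06, SE, n = 4), Ciao3 (-0.45), Lyrm4 (-0.36), Nfu1 (-0.33) and Ciao1 (-0.31), all of which serve cluster assembly or transfer. Cpox (0.46 ± 0.07, SE) and Fech (0.42 ± 0.10), enzymes of the last steps of heme synthesis, rose, and the call of Fech was lost without 6 of the arrays taken singly (highest adjusted p = 0.0793). The median of this list was -0.19. Among 10 copper genes 3 fell and 2 rose, with 9 at a control mean of at least 4 and the same shares over all genes. Ccs, the copper chaperone of superoxide dismutase, fell (-0.59 ± 0.07, SE, adjusted p = 0.00166), as did the oxidase assembly gene Cox17 (-0.28) and Slc31a2 (-0.19), and Sco2 (0.60) and the copper pump gene Atp7a (0.42) rose. Slc31a2 and Atp7a lost their call without some single arrays (highest adjusted p = 0.127 and 0.0570).

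**Figure D4:**
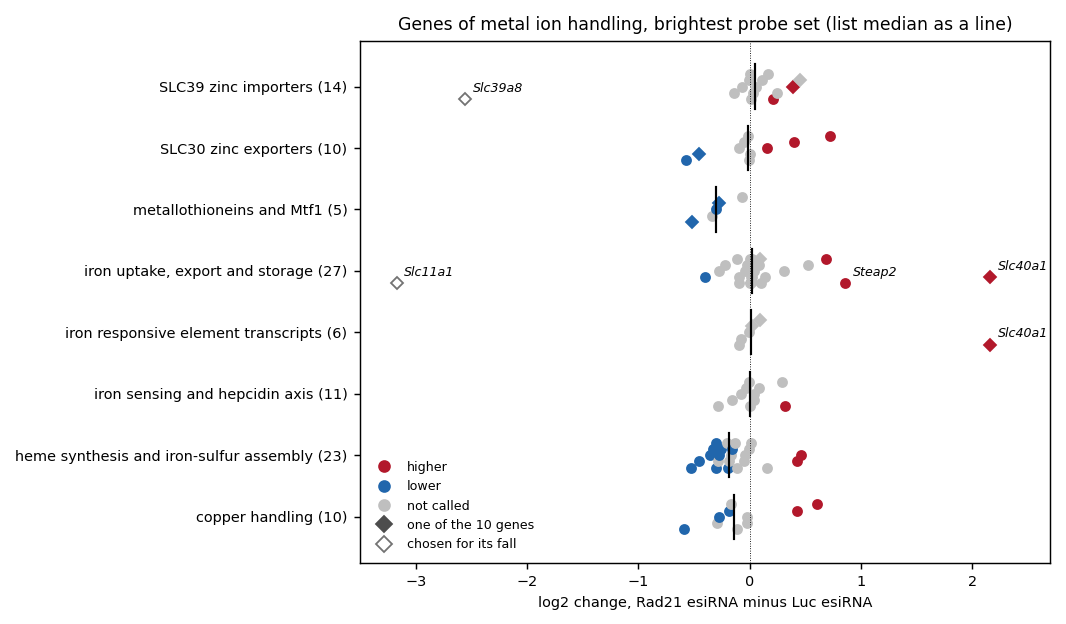
Log2 change (x axis, Rad21 esiRNA minus Luc esiRNA, brightest probe set) of each measured gene in 8 lists of metal ion handling, with the number measured in brackets, diamonds for the 10 genes, colours for calls and a line at each list median. Most genes lie within 1 of zero, with Slc40a1 at 2.16 and the genes chosen for their fall at -3.17 and -2.55 standing apart, and the median of the heme and iron-sulfur list is -0.19.

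Cohesin shapes chromatin loops, so the genes beside the 10 were examined as well. Neighbours were the 3 nearest measured protein-coding genes on each side in the RefSeq gene order. Genes that were not measured were skipped, and distances were not examined. Of 54 such genes, 1 rose and 10 fell, that is 20.4% against 22.6% of all genes, or against 10.1% higher and 12.6% lower. Beside Slc11a1, Aamp (-0.52) and Pnkd (-0.59) fell, while its nearest measured neighbours Tmbim1 (-0.30, adjusted p = 0.125) and Ctdsp1 (-0.15) did not pass. Usp37 (-0.04) did not pass either, and Vil1 was in the plateau. Beside Slc39a8, Manba (-0.53 ± 0.07, SE, n = 4, adjusted p = 0.00302) and the ubiquitin-conjugating enzyme gene Ube2d3 (-0.28) fell. Cisd2 (0.18) and Ppp3ca (0.17, adjusted p = 0.225) did not pass, and Bank1 and Emcn stayed in the plateau. Around Mt1 and Mt2, Bbs2 fell (-0.58 ± 0.11, SE, adjusted p = 0.00951), Nup93 did not pass (-0.13, adjusted p = 0.0958) and Slc12a3 was in the plateau. Herpud1 missed the threshold over all arrays (-0.77, adjusted p = 0.129) without overlap of the groups. It passed in each replicate set alone, with -1.26 (adjusted p = 0.00453) and -0.28 (adjusted p = 0.0285), and the sets differed (interaction adjusted p = 0.0334). The nearest measured neighbours of Slc40a1, Wdr75 (-0.06) and Slc39a10 (0.03), did not pass.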

How the data were processed

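Total RNA of 8 samples was hybridised to Affymetrix mouse expression arrays, from 250 ng per labelling according to the labels. The deposited log2 values were made by the authors with GCRMA in Partek Genomics Suite 6.4, a method that models background from probe GC content and makes the arrays' distributions equal, which hides any shift common to all transcripts. Precision is set by the 4 arrays per group.

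Of 45101 probe sets 64 were controls, and 45037 were fitted with lmFit and eBayes (limma 3.58.1, R 4.3.3) with 2 groups and no block or filter. Changes are Rad21 minus Luc, tests are two-sided, and SEs and 95% intervals are moderated. A gene was its brightest probe set with a single symbol in the platform annotation. Symbols were matched by Entrez ID to RefSeq genes of GRCm38.p6 for 34741 of 34945 probe sets, with 0 changed. Array quality was compared by exact permutation, and likeness of profiles was the root mean square difference of centred values. The test was checked on simulated data with independent values, which do not hold the replicate sets of the real arrays. Plots were drawn with matplotlib 3.10.9.

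The members, gene lists and naming rule were chosen with earlier results of these data known. Named are all member probe sets, up to 5 called genes per list and direction, key iron and zinc regulators, and neighbours of Slc11a1, Slc39a8, Mt1 and Mt2. The cell type markers, Epas1, Alas2 and the neighbours of Slc40a1 were added after their values were seen. Alternatives tried were an unmoderated analysis of variance as in the published methods, limma with trend and robust options, the replicate number or replicate set as a block, each set alone, only probe sets with a mean of 4 or more, renormalized values (quantiles, or centring on bright probe sets), array weights, omission of each array, other thresholds, and averaged probe sets per gene.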

Additional observations from a re-analysis of the deposited data

Results flagged for a closer look

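A single array stood apart from the 3 others of its group in 2 of the 44 groups of 4 values examined over the member probe sets, and chance gives about 1 in 20. In the knock-down, Slc11a2 at 1452078_a_at read 5.36 on replicate 1 against 5.77 to 5.85 on the others, a gap of 0.851 of the range. In the Luc control, Slc39a14 at 1438490_at read 3.86 on replicate 1 against 4.03 to 4.06, a gap of 0.848 of the range. The effect of the knock-down differed between the replicate sets at 2 probe sets. It was 0.73 lower in replicates 3 and 4 than in replicates 1 and 2 for the brightest Slc39a14 probe set (difference of -0.73, interaction adjusted p = 0.0276). It was 1.57 higher for the dimmer Slc40a1 probe set (adjusted p = 0.0367), with the same sign in both sets.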

How the results depend on the processing

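The count of called member probe sets was 10 and lay between 7 and 12 under every alternative run, with 8 to 10 when single arrays were left out. These counts include Slc11a1 and Slc39a8, which were chosen for their fall in this comparison, so their steadiness is no support. Without those genes 8 of 19 probe sets were called in the main fit. The count of 27 pathway genes was 15 in replicates 1 and 2 alone and 17 at an adjusted p under 0.01, and 20 to 25 without single arrays. The count of 11 neighbour genes was 7 with the replicate number as a block and 7 at an adjusted p under 0.01, and 8 to 11 without single arrays. The replicate numbers did not pair the arrays one to one, because deviations of same-numbered arrays correlated at only 0.02 to 0.13. Only 2 of 8 arrays correlated best with their own number. The replicate sets did share deviations. Luc and knock-down arrays of the same set correlated at 0.02 to 0.20, and those of different sets at -0.19 to -0.04. With the replicate number as a block 9 member probe sets and 6224 of all probe sets were called, against 6697 without it. The third Tfrc probe set then lost its call (adjusted p = 0.0513). With the replicate set as a block 10 member probe sets and 8177 of all probe sets were called. The limma adjusted p of Slc39a4 was then 5.96e-04. These sets were found in the same arrays, so this block is a description. Instead of 2 interaction calls, 0 to 1 were made without single arrays, where the lone array of a set is assumed to vary like the others, and 4 were called with a variance trend and robust prior. Over single member probe sets and alternatives, 337 results kept their sign and side of the threshold or moved within the replicate spread, 7 passed newly, 16 no longer passed and 4 moved. Another 27, at 8 probe sets, turned sign, of which 22 passed in neither setting and 4 carry no test. In replicates 1 and 2 alone the sign turned for the Slc39a8 probe set in the plateau (-0.0157), the dimmer Mt1 probe set (0.46, adjusted p = 0.0174), the brightest Slc11a2 (-0.0329) and Tfrc (-0.15) probe sets and the second Slc30a1 probe set (0.15). In replicates 3 and 4 alone it turned for Slc11a2 at 1441709_at (0.12) and Slc39a14 at 1425649_at (0.00123). Centring on bright probe sets turned Slc11a2 at 1417584_at (0.00804) and 1441709_at (0.0269, and 0.0336 with array weights) and Slc39a14 at 1425649_at (0.00985). Without single arrays the change ranged from -0.0643 to 0.0438 for Slc11a2 at 1417584_at, from -0.0528 to 0.0735 at 1441709_at, from -0.00264 to 0.0149 for the plateau Slc39a8 probe set, from -0.0588 to 0.0307 for Slc39a14 at 1425649_at, from -0.0982 to 0.0219 for the second Slc30a1 probe set, from -0.0889 to 0.131 for the brightest Tfrc probe set and from -0.358 to 0.175 for the dimmer Mt1 probe set. Slc39a14 at its brightest probe set passed with a minimum mean of 4 (adjusted p = 0.0288), as did Slc11a2 at 1452078_a_at (adjusted p = 0.0178), where fewer probe sets were tested. Dim signal limits the size of the Slc11a1 fall and of the third Tfrc probe set.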
